A study of Mus musculus with 9 samples.

Results

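Regulatory T cells are CD4 T cells that restrain other lymphocytes, and in tumours they can limit the response of effector T cells. Their identity is kept by the transcription factor Foxp3, they consume interleukin 2 through the high-affinity receptor that contains the alpha chain CD25, and activated regulatory T cells in tumours carry costimulatory receptors of the TNF receptor family and the chemokine receptor CCR8. Described here are 8 genes of these cells, of 42454 gene names in the deposited count tables. They are the transcription factor genes Foxp3, Ikzf2 (Helios) and Ikzf4 (Eos), Il2ra (CD25), the TNF receptor family genes Tnfrsf18 (GITR), Tnfrsf4 (OX40) and Tnfrsf9 (4-1BB), and Ccr8. They were chosen by name, not by their values, although earlier results of these data were known. Each was also set against Cd3e, a chain of the T cell receptor complex that all T cells share, in the same tumour.

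The samples, all bulk tumour RNA, were 5 tumours of CD43-KO MC38 cells and 4 tumours of Vec MC38 cells, which carried the vector. MC38 is a mouse colon carcinoma cell line, and both kinds of cell were grown in C57BL/6J mice and taken at day 21 after inoculation. CD43 was knocked out in the implanted cells, while the T cells in the tumours come from the host, to which the labels give no alteration. The labels do not say whether the knockout line was a single clone, nor the age or sex of the mice. RNA of whole tumour tissue was sequenced, so fewer cells of a type and less RNA per cell cannot be told apart. The labels do not say whether tumours came from separate experiments, so p-values measure the spread between these tumours.

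Total counts were 44814061 to 62194418 in CD43-KO libraries and 60751738 to 72114385 in Vec libraries. Levels are CPM, the counts scaled to library size, after TMM scaling, a correction for differences in library composition. Spn, which encodes CD43 and is also made by leukocytes, was at 6.81 to 33.6 CPM in CD43-KO tumours and at 41.0 to 53.8 CPM in Vec tumours, without overlap. Of all genes tested, 3.50% had every CD43-KO tumour below every Vec tumour. CD43-KO replicate 3 stood apart, with the highest summed level of 7 skeletal muscle genes (1082 CPM, against at most 113.8 CPM in any other tumour) and of 5 fat genes (363.9 CPM, against at most 46.6 CPM). Foxp3 had between 40 and 146 counts in CD43-KO tumours and between 30 and 66 counts in Vec tumours, so its transcripts were present in all 9. All 8 genes passed the filter on low counts.

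The genes lie on 6 chromosomes, with coordinates here from GENCODE M21 on GRCm38. Foxp3 is on chromosome X (7573644 to 7595245, plus strand), Il2ra on chromosome 2 (11642807 to 11693193, plus strand), Ikzf2 on chromosome 1 (69531214 to 69687245, minus strand) and Ikzf4 on chromosome 10 (128630843 to 128645991, minus strand). Ccr8 is on chromosome 9 (120092114 to 120094906, plus strand). The 3 TNF receptor genes are on chromosome 4, Tnfrsf9 at 150914562 to 150946102, Tnfrsf4 at 156013843 to 156016612 and Tnfrsf18 at 156026164 to 156028895, all on the plus strand, with 9.55 kb between Tnfrsf4 and Tnfrsf18. Exons of Foxp3 share 853 bases with Flicr on the same strand, so reads there cannot be told apart by strand. On the opposite strand, exons of Foxp3 share 266 bases with Ppp1r3f, 373 bases with Gm36995 and 590 bases with Ccdc22, and exons of Tnfrsf18 share 414 bases with Gm16008, those of Ikzf2 144 bases with Gm29114 and those of Ikzf4 37 bases with Gm26876. The strand setting of the counting is not given in the sources used here, so reads of the overlaps on opposite strands could be assigned to either gene.

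RefSeq promoter windows on GRCm38.p6 matched 6 of the 8 genes, Ikzf2 and Ikzf4 being the others, and are shown for genes whose transcripts were highest in the same CD43-KO tumours. Each window is the 250 bases before an annotated start, printed up to the first exon of that gene in GENCODE M21, except that the short Tnfrsf18 stretch lies in an annotated exon. The Foxp3 and Tnfrsf9 windows lie inside the annotated genes. Capitals mark matches to the STAT motif TTCNNNGAA, to the AP-1 motif TGANTCA or to the NF-kB consensus, searched on both strands. STAT5 acts below the IL-2 receptor, and NF-kB below the TNF receptor family.
Foxp3, the later of its 2 starts, chrX:7580233-7580482, plus strand: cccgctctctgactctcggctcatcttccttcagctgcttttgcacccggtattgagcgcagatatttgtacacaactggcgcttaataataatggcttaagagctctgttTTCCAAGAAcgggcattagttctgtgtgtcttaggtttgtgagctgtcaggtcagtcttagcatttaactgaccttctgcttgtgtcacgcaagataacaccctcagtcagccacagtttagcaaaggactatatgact
Il2ra, chr2:11642542-11642791, plus strand: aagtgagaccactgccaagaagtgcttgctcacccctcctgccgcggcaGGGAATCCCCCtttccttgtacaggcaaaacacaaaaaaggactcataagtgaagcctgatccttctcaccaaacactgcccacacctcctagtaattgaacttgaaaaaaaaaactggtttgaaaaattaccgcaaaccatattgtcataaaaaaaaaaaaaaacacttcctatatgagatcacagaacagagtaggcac
Tnfrsf9, the later of its 2 starts, chr4:150927749-150927917, plus strand: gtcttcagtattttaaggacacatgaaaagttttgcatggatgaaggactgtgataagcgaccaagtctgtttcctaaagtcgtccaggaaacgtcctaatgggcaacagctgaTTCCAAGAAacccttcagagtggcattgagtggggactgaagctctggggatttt
Tnfrsf18, the stretch around its match, chr4:156026213-156026241, plus strand: tgctctacacTTCACAGAAggcctttaca
Ccr8, chr9:120091883-120092113, plus strand: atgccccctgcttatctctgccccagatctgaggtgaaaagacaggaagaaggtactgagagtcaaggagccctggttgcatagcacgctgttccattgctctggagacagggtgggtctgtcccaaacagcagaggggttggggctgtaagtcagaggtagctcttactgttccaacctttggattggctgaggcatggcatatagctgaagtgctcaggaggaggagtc

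The STAT motif lay 131 to 139 bases before the later Foxp3 start, 91 to 99 bases before the Tnfrsf18 start and 128 to 136 bases before the later Tnfrsf9 start. Of 32851 promoter windows of 250 bases, 7.02% held this motif, 6.75% the AP-1 motif and 3.90% the NF-kB consensus. The Il2ra window held 2 overlapping NF-kB matches, and the part of the later Tnfrsf9 window that is not printed held 2 more and 1 AP-1 match. None of the 3 motifs was found in the Ccr8 or Tnfrsf4 window, or before the earlier starts of Foxp3 and Tnfrsf9. A match is a description of these letters and was not set against any result below.

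Transcripts of all 8 genes had a higher mean in CD43-KO than in Vec tumours, with log2 fold changes from 0.36 to 1.18, and none of them passed the test over all genes. For Foxp3, Il2ra, Tnfrsf18, Tnfrsf9 and Ccr8, CD43-KO replicates 1, 2 and 3 all lay above every Vec tumour. CD43-KO replicate 5 was also above every Vec tumour for Il2ra and Tnfrsf18, and replicate 4 for none of these 5 genes. In Ikzf2 and Ikzf4 all 5 CD43-KO tumours were above all 4 Vec tumours, by a narrow margin in both. The edgeR quasi-likelihood test with Benjamini-Hochberg adjustment over 18243 genes called 0 of the 8, where it called 0% of all genes in either direction. At an unadjusted p under 0.05 it gave 4 of the 8, Il2ra, Ikzf2, Tnfrsf18 and Ccr8, all with a higher level (7.75% of all genes were higher at that level, and 7.63% lower). The median log2 fold change was 0.82 over the 8 genes and 0.03 over all genes tested.

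**Figure D1:**
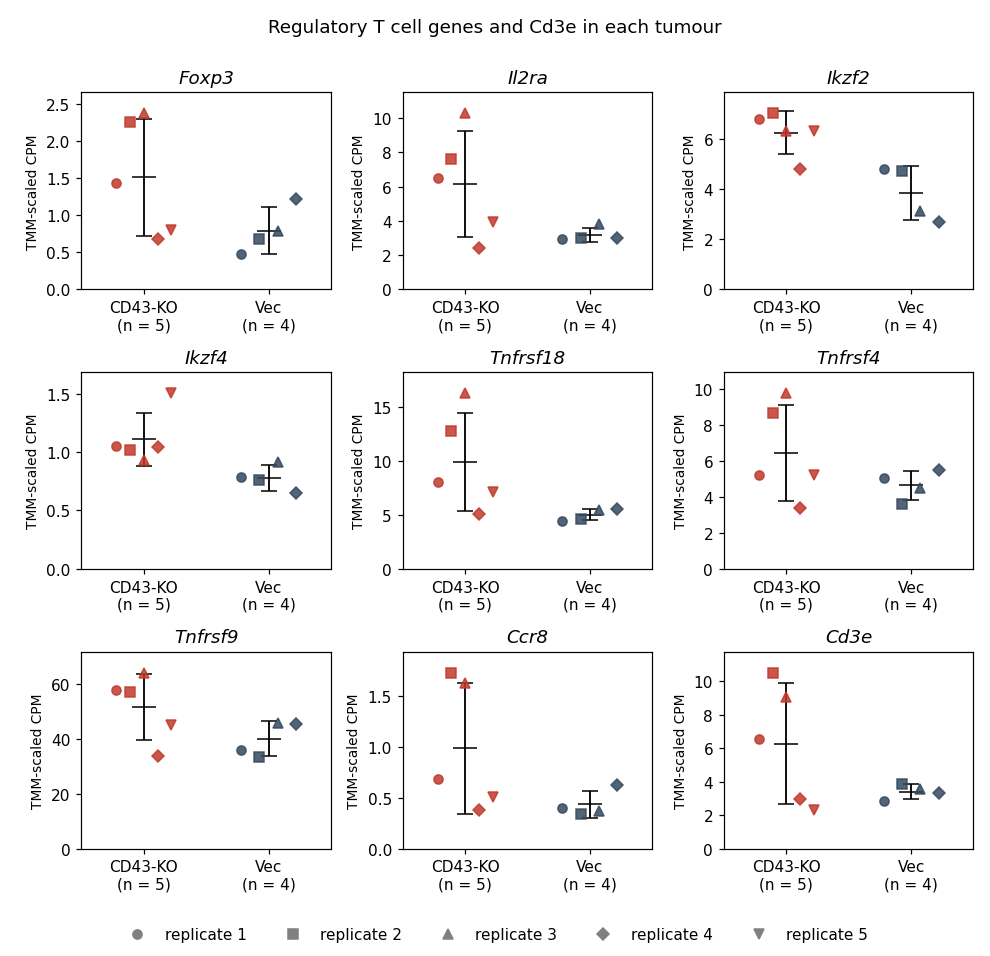
Level of the 8 genes and of Cd3e in each tumour, as TMM-scaled CPM on linear axes that start at 0, with 5 CD43-KO tumours left and 4 Vec tumours right. Symbols give the replicate, which links no tumours across groups, and bars give the mean and SD. CD43-KO replicates 2 and 3 are the highest tumours for Foxp3, Il2ra, Tnfrsf18, Tnfrsf4, Ccr8 and Cd3e.

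Foxp3, the factor that defines the lineage, was at 1.44, 2.25, 2.37, 0.681 and 0.794 CPM in CD43-KO replicates 1 to 5, compared with 0.474, 0.670, 0.789 and 1.22 CPM in Vec replicates 1 to 4. The first 3 CD43-KO tumours were above every Vec tumour, and the other 2 lay inside the Vec range. The means were 1.51 ± 0.789 CPM in CD43-KO tumours (SD, n = 5) and 0.788 ± 0.316 CPM in Vec tumours (SD, n = 4). The log2 fold change was 0.93 ± 0.44 (SE), with an edgeR adjusted p of 0.343. A two-sided exact permutation test over every split of the tumours into 5 and 4 gave p = 0.127, where the smallest possible p is 0.00794.

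Ikzf2 encodes Helios, an Ikaros family zinc finger factor of regulatory and some other activated T cells. Its levels were 6.83, 7.05, 6.34, 4.82 and 6.32 CPM in CD43-KO tumours, compared with 4.80, 4.74, 3.13 and 2.70 CPM in Vec tumours. The groups did not overlap, but the lowest CD43-KO tumour and the highest Vec tumour were close, at 4.82 CPM in CD43-KO and 4.80 CPM in Vec tumours. The means were 6.27 ± 0.870 CPM in CD43-KO tumours (SD, n = 5) and 3.84 ± 1.09 CPM in Vec tumours (SD, n = 4), a log2 fold change of 0.71 ± 0.21 (SE, edgeR adjusted p = 0.2175). The exact permutation p was 0.0159. DESeq2, another test of counts, called it with an adjusted p of 0.0416, and that call was lost in 5 of 9 fits that each left out 1 tumour.

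Ikzf4 encodes Eos, a related factor that works with Foxp3 in gene repression. It was at 1.05, 1.02, 0.929, 1.04 and 1.504 CPM in CD43-KO tumours, compared with 0.789, 0.760, 0.915 and 0.647 CPM in Vec tumours. Here too no CD43-KO tumour lay as low as a Vec tumour, and the tumour with the most Foxp3, CD43-KO replicate 3, was the lowest of its group. Its 0.929 CPM was close to the 0.915 CPM of Vec replicate 3, the highest Vec tumour. CD43-KO replicate 3 had 40 of 44814061 counts and Vec replicate 3 had 65 of 72114385 counts. By these totals, without TMM scaling, the Vec tumour was the higher, so the groups overlapped. The log2 fold change was 0.51 ± 0.25 (SE, edgeR adjusted p = 0.350), with an exact permutation p of 0.0159. These levels rest on 40 to 89 counts in CD43-KO tumours and 35 to 65 counts in Vec tumours. In TMM-scaled CPM, complete separation with the CD43-KO tumours on top was seen in 2 of the 8 genes and in 2.08% of all genes.

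Il2ra encodes CD25, which raises the affinity of the IL-2 receptor. It was at 6.51, 7.63, 10.3, 2.38 and 3.90 CPM in CD43-KO tumours, compared with 2.92, 2.98, 3.79 and 3.01 CPM in Vec tumours. CD43-KO replicate 4 was the lowest of all 9 tumours, and the other 4 CD43-KO tumours were above every Vec tumour. The means were 6.14 ± 3.11 CPM in CD43-KO tumours (SD, n = 5) and 3.17 ± 0.411 CPM in Vec tumours (SD, n = 4), so the spread was far wider in CD43-KO tumours. The log2 fold change was 0.95 ± 0.37 (SE, edgeR adjusted p = 0.2795), and the exact permutation p was 0.119.

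Tnfrsf18 encodes GITR, a costimulatory receptor that regulatory T cells carry at rest and other T cells after activation. It was at 8.07, 12.8, 16.3, 5.13 and 7.17 CPM in CD43-KO tumours, compared with 4.48, 4.65, 5.45 and 5.52 CPM in Vec tumours. In this gene 4 of 5 CD43-KO tumours were above every Vec tumour, and replicate 4 lay inside the Vec range. The log2 fold change was 0.97 ± 0.31 (SE, edgeR adjusted p = 0.231), with an exact permutation p of 0.0476. DESeq2 called Tnfrsf18 at an adjusted p of 0.0496, and the call was lost in 7 of 9 fits that each left out 1 tumour. DESeq2 thus called 2 of the 8 genes higher, Ikzf2 and Tnfrsf18, where it called 1.35% of all genes higher. Limma voom called 0 of the 8, where it called 1.04% of all genes higher and 2.04% lower.

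Tnfrsf4, the neighbour of Tnfrsf18 on chromosome 4, encodes the costimulatory receptor OX40. Its levels were 5.26, 8.71, 9.80, 3.39 and 5.24 CPM in CD43-KO tumours, compared with 5.05, 3.59, 4.49 and 5.49 CPM in Vec tumours. CD43-KO replicates 2 and 3 were above every Vec tumour, and replicate 4 was the lowest of all 9 tumours. The log2 fold change was 0.48 ± 0.30 (SE, edgeR adjusted p = 0.448, exact permutation p = 0.294), and 0.27 when CD43-KO replicate 3 was left out.

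Tnfrsf9 encodes 4-1BB, an activation-induced costimulatory receptor of T cells and natural killer cells. It was at 57.8, 57.4, 64.3, 33.7 and 45.3 CPM in CD43-KO tumours, compared with 35.9, 33.6, 45.7 and 45.6 CPM in Vec tumours. In the same Vec tumours Cd3e was at 2.87 to 3.89 CPM. Which cells of the tumour made the Tnfrsf9 transcript was not tested. Tnfrsf9 had the smallest log2 fold change of the 8, at 0.36 ± 0.19 (SE, edgeR adjusted p = 0.3705, exact permutation p = 0.1905). The tables also list a copy name for this gene with 114 to 271 counts in CD43-KO tumours and 156 to 210 counts in Vec tumours, or 5.76% to 7.38% of the counts under the plain name, so its level is uncertain by about that share. With the copy's counts added the log2 fold change was 0.36, and for the copy name alone it was 0.27.

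Ccr8 encodes a chemokine receptor that marks activated regulatory T cells in tumours. It was at 0.688, 1.73, 1.63, 0.375 and 0.507 CPM in CD43-KO tumours, compared with 0.395, 0.343, 0.366 and 0.628 CPM in Vec tumours. It had the largest log2 fold change of the 8, at 1.18 ± 0.50 (SE, edgeR adjusted p = 0.306, exact permutation p = 0.143), and the fewest counts, 22 to 112 in CD43-KO tumours and 23 to 34 in Vec tumours. CD43-KO replicates 1, 2 and 3 were above every Vec tumour, and replicates 4 and 5 were below the highest Vec tumour. Leaving out CD43-KO replicate 2 lowered the log2 fold change to 0.88.

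Per kilobase of exon, the 8 genes spanned a wide range in both groups. In CD43-KO tumours the order of mean levels was Tnfrsf9 (18.99 ± 4.47), Tnfrsf18 (6.49 ± 2.99), Tnfrsf4 (4.75 ± 1.96), Il2ra (1.08 ± 0.544), Ccr8 (0.838 ± 0.547), Ikzf2 (0.540 ± 0.0749), Foxp3 (0.329 ± 0.172) and Ikzf4 (0.185 ± 0.0377), all in CPM per kb (SD, n = 5). Of the neighbours in this order, Tnfrsf18 and Tnfrsf4, Il2ra and Ccr8, Ccr8 and Ikzf2, and Foxp3 and Ikzf4 differed by less than the larger of their SDs. In Vec tumours the same quantity was 14.8 for Tnfrsf9, 3.30 ± 0.353 for Tnfrsf18, 3.41 ± 0.600 for Tnfrsf4, 0.556 for Il2ra, 0.368 ± 0.112 for Ccr8, 0.331 ± 0.0935 for Ikzf2, 0.172 ± 0.069 for Foxp3 and 0.130 ± 0.0184 for Ikzf4. In Vec tumours this held for Tnfrsf18 and Tnfrsf4, for Ccr8 and Ikzf2, and for Foxp3 and Ikzf4 (SD, n = 4). Cd3e was at 1.54 CPM per kb in CD43-KO and 0.835 CPM per kb in Vec tumours. By this measure Tnfrsf9, Tnfrsf18 and Tnfrsf4 transcripts were above that of the T cell receptor chain in both groups, and Foxp3 below it. The length was that of all annotated exons together, 4080 bases for Cd3e and 1365 bases for Tnfrsf4, whichever transcripts were made. Without division by length, Tnfrsf4 and Cd3e had means of 6.48 and 6.28 CPM in CD43-KO tumours.

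**Figure D2:**
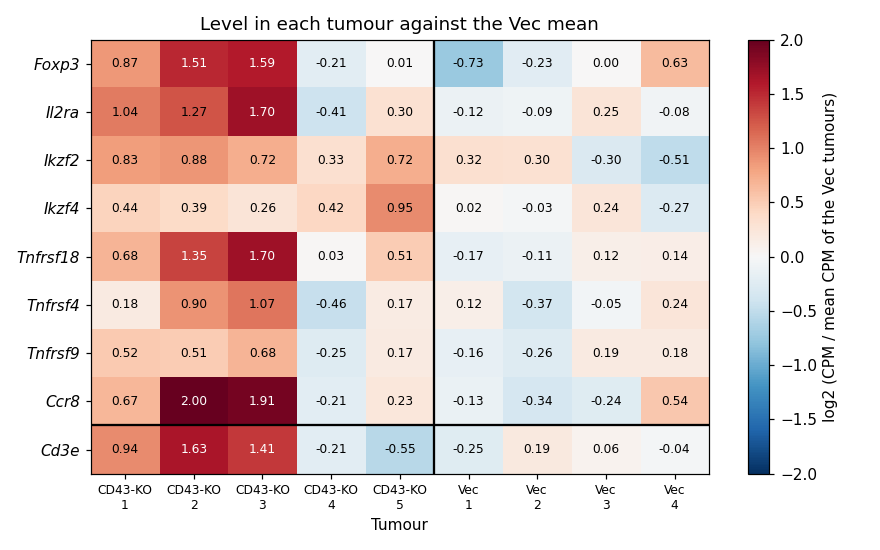
Level of each gene in each tumour as log2 of its CPM over the mean CPM of the 4 Vec tumours, with CD43-KO tumours left of the vertical line and Cd3e in the bottom row. Foxp3 reaches 1.51 and 1.59 in CD43-KO replicates 2 and 3, while Ikzf4 is highest in replicate 5 at 0.95, the tumour in which Cd3e is lowest at -0.55.

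The order of the tumours split the 8 genes. Cd3e was at 6.56, 10.5, 9.06, 2.95 and 2.33 CPM in CD43-KO tumours, compared with 2.87, 3.89, 3.56 and 3.31 CPM in Vec tumours (a log2 difference of 0.88 ± 0.42 SE, edgeR adjusted p = 0.340, exact permutation p = 0.214). Foxp3, Il2ra, Tnfrsf18, Ikzf2, Tnfrsf9 and Ccr8 shared with Cd3e that CD43-KO replicates 1, 2 and 3 were the 3 highest of 9 tumours, and in Tnfrsf4 replicate 1 was the fourth. In Ikzf4 the highest tumour was CD43-KO replicate 5, where Cd3e was the lowest of all.

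Across the 9 tumours, Pearson's r of log2 CPM between Foxp3 and the other genes was 0.94 for Ccr8, 0.92 for Tnfrsf18, 0.90 for Tnfrsf9, 0.88 for Il2ra and 0.84 for Tnfrsf4, but 0.39 for Ikzf2 and 0.09 for Ikzf4. These r are descriptions: the values share their libraries, and 3 tumours with high T cell transcripts spread the points. Ikzf2 and Ikzf4 had an r of 0.65 with each other. Among 12442 or 12443 named genes with a mean of at least 1 CPM, those most like Foxp3 were Cdkn1c (r = 0.97), Plac8 (0.97) and Cryzl2 (0.97), and those most like Il2ra were Pygl (0.99), Stat4 (0.99), a transcription factor of IL-12 signalling, and Cybb (0.99), a subunit of the phagocyte oxidase. Tnfrsf18 was most like Emb (0.98), Trpv2 (0.98) and Cd38 (0.98), Tnfrsf4 most like Prkcb (0.97), Zdhhc14 (0.95) and St3gal6 (0.94), Tnfrsf9 most like Ripk3 (0.98), Slc52a3 (0.98) and Mmp25 (0.97), and Ccr8 most like Acsf2 (0.97), Klhl13 (0.97) and Adam23 (0.96). Ikzf2 was most like Stk4 (0.98), Fyco1 (0.97) and Zfp74 (0.97), and Ikzf4 most like Snora2b (0.98), Golm1 (0.96) and Larp4 (0.95).

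Transcripts of several other cell types were also high in CD43-KO replicates 1, 2 and 3, in which most of the members were high. Ikzf4, highest in replicate 5, did not share this order. The summed level of 15 T cell genes was 99.8, 152.5, 187.8, 56.4 and 71.1 CPM in CD43-KO replicates 1 to 5, against 64.9 to 77.8 CPM in Vec tumours. Of these genes Tcf7 alone was at 24.7 to 31.7 CPM in CD43-KO and 19.8 to 33.0 CPM in Vec tumours, with a log2 fold change of -0.13. The summed level of 8 CD8 T cell and cytotoxic genes was 39.6 to 236.7 CPM in CD43-KO and 54.1 to 85.7 CPM in Vec tumours. That of 6 natural killer genes was 82.6 to 425.2 CPM in CD43-KO and 85.6 to 137.8 CPM in Vec tumours. Most of the natural killer sum was 1 gene, Tyrobp, at 67.9 to 327.4 CPM in CD43-KO and 69.5 to 108.2 CPM in Vec tumours. Which cells of the tumour made the Tyrobp transcript was not tested, so this sum cannot be assigned to natural killer cells. The sum of 8 macrophage genes was 810 to 2578 CPM in CD43-KO and 939 to 1183 CPM in Vec tumours. For 5 pan-leukocyte genes the sum was 314 to 1040 CPM in CD43-KO and 318 to 430 CPM in Vec tumours. Its highest value was in CD43-KO replicate 3, where the muscle and fat sums were also highest. The sum of 6 B cell genes was 4.94, 6.74, 11.3, 2.69 and 2.485 CPM in CD43-KO replicates 1 to 5 and 0.963 to 2.479 CPM in Vec tumours. The lowest CD43-KO sum was thus barely above the highest Vec sum. The 4 of these genes that were tested had a median log2 fold change of 1.68, and 0 of the 4 separated the groups. The largest part of the sum was Cd22, at 1.29 to 7.36 CPM in CD43-KO and 0.568 to 1.39 CPM in Vec tumours. That of 5 lymph node genes was 13.6, 22.4, 20.9, 9.195 and 8.315 CPM in CD43-KO replicates 1 to 5 and 7.21 to 9.14 CPM in Vec tumours. Outside the immune lists, 5 endothelial genes summed to 97.5, 120.1, 94.6, 49.9 and 69.5 CPM in the same order, and 62.2 to 77.1 CPM in Vec tumours. For 6 fibroblast genes, 4 with a log2 fold change above 0, the sums were 2124, 3314, 1931, 1374 and 1141 CPM, against 1470 to 1632 CPM in Vec tumours. The sum of 5 skin genes was instead lowest in CD43-KO replicate 3, at 297.6 CPM, against 342 to 800 CPM in Vec tumours. No gene of these lists was at 0 in every tumour. Their part in the members' levels was not tested, apart from the comparisons with Cd3e and other denominators that follow.

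Relative to Cd3e in the same tumour, none of the 8 genes was called different between the groups. The log2 difference of the ratio, CD43-KO minus Vec, lay between -0.31 for Tnfrsf9 and 0.27 for Ccr8, with limma standard errors of 0.54 to 0.66. Limma draws these errors toward a variance taken from the ratios of all genes, which share Cd3e. They are therefore not each gene's own spread between tumours. Limma on the log2 ratio of every gene, adjusted over 18242 genes, gave adjusted p from 0.691 to 0.917 for the 8, and two-sided exact permutation p ranged from 0.373 to 0.873. It called 0 of the 8, where it called 0.0164% of all genes higher and 0.0603% lower. The median difference was 0.11 over the 8 genes and -0.63 over all genes. At an unadjusted p under 0.05 it gave 0 of the 8, where 0.137% of all genes were higher and 5.68% lower. The difference was below 0 in 3 of the 8, Ikzf4, Tnfrsf4 and Tnfrsf9, and in 92.0% of all genes. No member's ratio separated the groups, where 0.0658% of all genes had every CD43-KO tumour above every Vec tumour and 0.696% below. These p-values, from 5 CD43-KO and 4 Vec tumours, do not show that the ratios were equal.

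**Figure D3:**
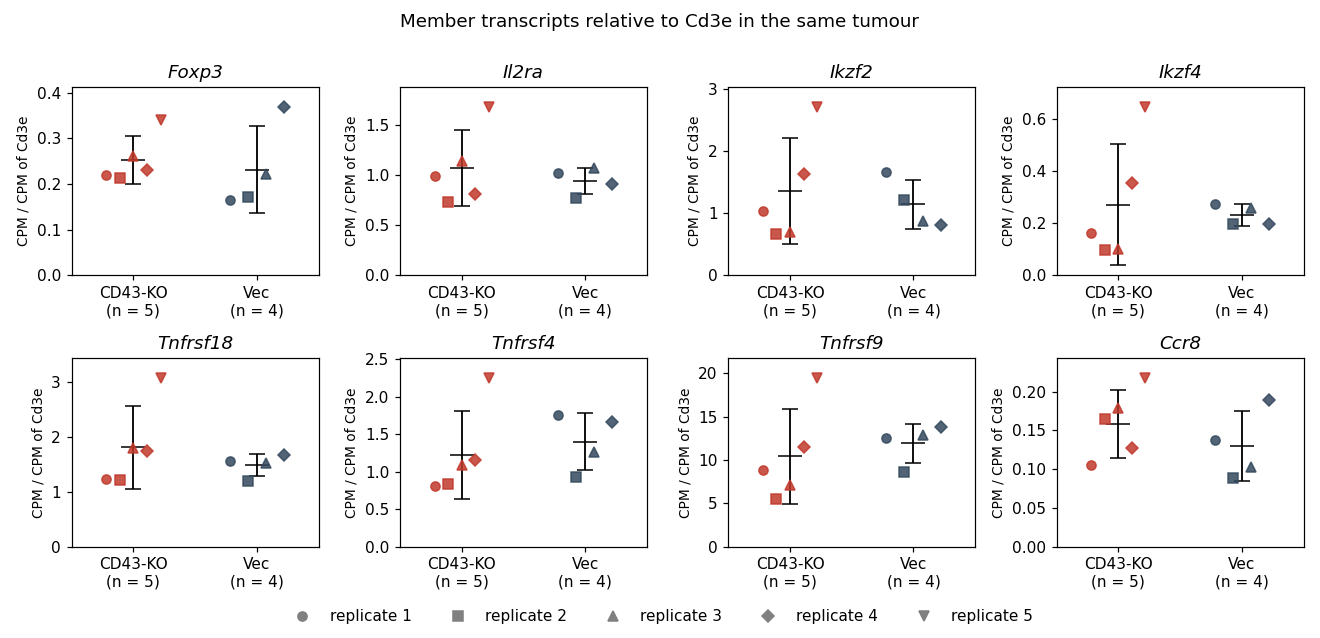
CPM of each gene divided by the CPM of Cd3e in the same tumour, on linear axes that start at 0, with 5 CD43-KO tumours left and 4 Vec tumours right, symbols for replicates, and bars for the mean and SD. CD43-KO replicate 5 has the highest ratio of its group in all 8 panels, for example 3.07 for Tnfrsf18.

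Foxp3 relative to Cd3e was 0.219, 0.214, 0.2615, 0.231 and 0.341 in CD43-KO tumours, against 0.165, 0.172, 0.221 and 0.369 in Vec tumours. All 5 CD43-KO values lay inside the Vec range. The means were 0.253 ± 0.0522 in CD43-KO tumours (SD, n = 5) and 0.232 ± 0.0946 in Vec tumours (SD, n = 4), with a log2 difference of 0.16 ± 0.62 (SE, limma adjusted p = 0.857). Il2ra relative to Cd3e was 0.993, 0.726, 1.14, 0.809 and 1.67 in CD43-KO tumours, against 1.02, 0.766, 1.06 and 0.911 in Vec tumours. Ccr8 relative to Cd3e was 0.105 to 0.217 in CD43-KO tumours and 0.0881 to 0.190 in Vec tumours.

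For 5 genes the ratio varied less over the 9 tumours than the level did. The highest tumour stood above the lowest by 5.002-fold in Foxp3 level and by 2.24-fold in its ratio to Cd3e, by 5.04-fold and 2.47-fold for Ccr8, by 4.32-fold and 2.31-fold for Il2ra, by 3.64-fold and 2.57-fold for Tnfrsf18, and by 2.89-fold and 2.80-fold for Tnfrsf4. For the other 3 the ratio varied more than the level. The spans were 1.91-fold in level and 3.56-fold in ratio for Tnfrsf9, 2.61-fold and 4.04-fold for Ikzf2, and 2.33-fold and 6.66-fold for Ikzf4. Ikzf4 relative to Cd3e was 0.161, 0.0968, 0.103, 0.353 and 0.645 in CD43-KO tumours, against 0.275, 0.195, 0.257 and 0.196 in Vec tumours, so 3 CD43-KO tumours lay below every Vec tumour and 2 above.

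With the log2 CPM of Cd3e as a covariate in the edgeR fit, a model that lets each gene follow Cd3e to its own degree, the log2 fold changes were 0.24 ± 0.33 for Foxp3, 0.35 ± 0.24 for Il2ra, 0.10 ± 0.26 for Tnfrsf4, 0.14 ± 0.16 for Tnfrsf9 and 0.37 ± 0.38 for Ccr8 (SE). Those of Tnfrsf18 (0.52 ± 0.22), Ikzf2 (0.62 ± 0.23) and Ikzf4 (0.63 ± 0.26) were between 0.52 and 0.63. None of the 8 passed, with edgeR adjusted p from 0.364 for Ikzf2 to 0.892 for Tnfrsf4. Whether the members differed from each other in this was not tested.

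**Figure D4:**
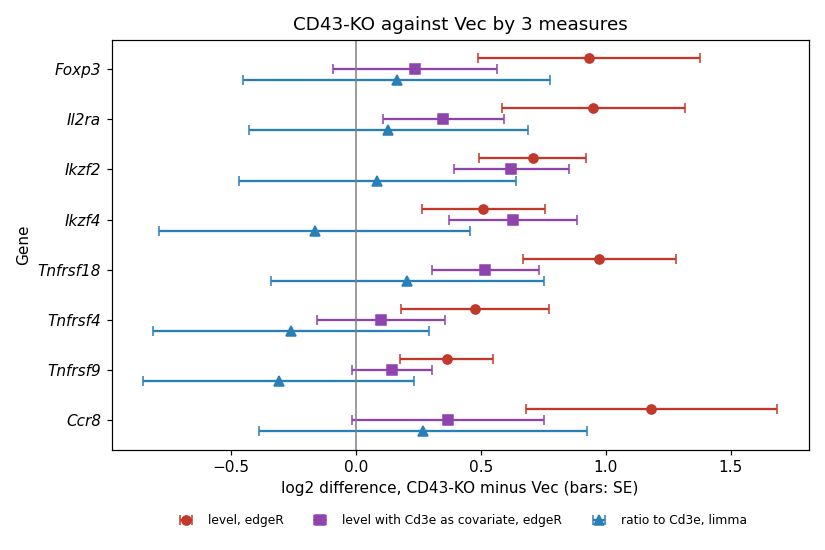
Log2 difference, CD43-KO minus Vec, of each gene by 3 measures with SE bars: its level in edgeR (circles), its level with Cd3e as a covariate in edgeR (squares) and its ratio to Cd3e in limma (triangles). For Foxp3 the values are 0.93, 0.24 and 0.16, while for Ikzf4 the level is 0.51 without and 0.63 with the covariate.

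The ratio depended on which T cell gene was the denominator. Foxp3 in Vec tumours was 0.165 to 0.369 relative to Cd3e, 0.113 to 0.181 relative to Cd3g and 0.122 to 0.203 relative to Cd3d. In CD43-KO replicate 3 it was 0.2615, 0.0919 and 0.0954 relative to the same 3 genes. That tumour thus lay inside the Vec range with Cd3e and below every Vec tumour with Cd3g and Cd3d. In CD43-KO replicate 5 the Foxp3 ratios were 0.341, 0.145 and 0.176, each inside the Vec range. Cd3e was at 2.33 CPM in CD43-KO replicate 5, while Cd3d and Cd3g, which encode chains of the same complex, were at 4.51 and 5.48 CPM. Relative to Cd3e, this tumour had the highest ratio of its group in 8 of 8 genes and lay above every Vec tumour in 7. Relative to Cd3d it was the highest in 7 genes, relative to Cd247 and to the helper T cell coreceptor Cd4 in 3 genes each, and relative to Cd3g, Cd8a or the pan-leukocyte gene Ptprc in 0 genes. Foxp3 relative to Cd4 was 0.411, 0.317, 0.281, 0.320 and 0.281 in CD43-KO tumours and 0.304 to 0.448 in Vec tumours, with a log2 difference of -0.27 ± 0.63 (SE, limma adjusted p = 0.699).

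Of 22 other genes known from regulatory T cells 20 were tested, and 17 had a log2 fold change above 0 (54.0% of all genes did), with a median of 0.61 and 0 that passed. The most abundant were Capg, an actin-capping protein (407 ± 51.4 CPM in CD43-KO and 451 ± 66.5 CPM in Vec tumours), Tgfb1, the cytokine TGF-beta 1 (110.3 ± 14.96 CPM in CD43-KO and 104 ± 16.9 CPM in Vec tumours), Il1rl1, the IL-33 receptor (63.6 ± 13.7 CPM in CD43-KO and 79.8 ± 23.7 CPM in Vec tumours), and Entpd1, the ectonucleotidase CD39 (41.1 ± 17.6 CPM in CD43-KO and 23.9 ± 2.09 CPM in Vec tumours). Tumours also contain other cells that make these. Chosen after their values were seen, the checkpoint receptor gene Ctla4 was at 3.50, 4.84, 8.43, 1.26 and 2.65 CPM in CD43-KO tumours, compared with 1.63, 1.68, 2.86 and 1.201 CPM in Vec tumours, and the suppressive cytokine gene Il10 at 1.25, 1.25, 2.60, 0.238 and 0.287 CPM in CD43-KO, set beside 0.237, 0.253, 0.394 and 0.296 CPM in Vec tumours. On the log2 scale the differences were 1.16 ± 0.49 and 1.92 ± 0.67 (SE), with edgeR adjusted p of 0.300 and 0.256. For both, CD43-KO replicates 1, 2 and 3 were the tumours above every Vec tumour. Not every gene of the list moved this way, as Lrrc32 differed by -0.01 ± 0.29 (SE) and Nt5e by 0.20 ± 0.18 (SE).

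Of 11 known regulators and partners of Foxp3, 8 lay above 0, with a median of 0.18, and 0 passed. Cbfb, which encodes the partner of RUNX factors, was at 146 ± 7.98 CPM in CD43-KO and 158 ± 2.32 CPM in Vec tumours, with every CD43-KO tumour below every Vec tumour (3.50% of all genes; edgeR adjusted p = 0.448). Ezh2, the Polycomb methyltransferase, was at 61.6 ± 3.23 CPM in CD43-KO and 64.7 ± 4.79 CPM in Vec tumours, its partner Eed at 55.5 ± 3.63 CPM in CD43-KO and 48.95 ± 3.86 CPM in Vec tumours, and Runx1 at 65.2 ± 10.9 CPM in CD43-KO and 58.8 ± 6.50 CPM in Vec tumours. In the Ikaros family, Ikzf1 was at 16.2 ± 6.85 CPM in CD43-KO and 9.81 ± 1.37 CPM in Vec tumours, Ikzf3 at 3.30 ± 2.29 CPM in CD43-KO and 1.38 ± 0.441 CPM in Vec tumours, and Ikzf5, which had the largest level of the 3, at 30.5 ± 2.48 CPM in CD43-KO and 30.3 ± 4.96 CPM in Vec tumours. On the log2 scale these 3 genes differed by 0.73, 1.25 and 0.01, and none of them passed.

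Il2, the ligand of the CD25 receptor, was too low to be tested, with 2 to 15 counts in CD43-KO and 0 to 4 counts in Vec libraries. Of the other 11 genes of IL-2 signalling 10 lay above 0, with a median log2 fold change of 0.36, and 0 passed the edgeR test. The shared receptor chain Il2rg was at 72.5 ± 20.8 CPM in CD43-KO and 56.5 ± 10.3 CPM in Vec tumours, the kinase gene Jak1 at 171 ± 35.6 CPM in CD43-KO and 176 ± 20.04 CPM in Vec tumours, Stat5b at 67.2 ± 1.32 CPM in CD43-KO and 64.2 ± 7.42 CPM in Vec tumours and the feedback inhibitor Socs1 at 47.7 ± 19.8 CPM in CD43-KO and 36.9 ± 4.73 CPM in Vec tumours. Socs2, another STAT5 target that damps cytokine signals, was chosen after its values were seen. It was at 11.03, 16.5, 10.4, 12.9 and 16.2 CPM in CD43-KO tumours, compared with 9.06, 8.94, 8.10 and 7.26 CPM in Vec tumours. All CD43-KO tumours were above all Vec tumours (a log2 difference of 0.69 ± 0.17 SE, edgeR adjusted p = 0.187, DESeq2 adjusted p = 0.0118). Of all genes, 2.08% separated in this direction and 1.35% were called higher by DESeq2.

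Of the ligands of the 3 TNF receptors, that of 4-1BB had a lower mean in CD43-KO tumours and those of GITR and OX40 had a higher one. Tnfsf9, the ligand of 4-1BB, was at 11.4, 9.16, 10.1, 10.2 and 8.57 CPM in CD43-KO tumours, compared with 14.4, 12.0, 11.6 and 12.6 CPM in Vec tumours. Every CD43-KO tumour lay below every Vec tumour (3.50% of all genes), with a log2 fold change of -0.36 ± 0.12 (SE, edgeR adjusted p = 0.246, exact permutation p = 0.0159). Tnfsf18, the ligand of GITR, was at 0.614 ± 0.249 CPM in CD43-KO and 0.501 ± 0.150 CPM in Vec tumours, and Tnfsf4, the ligand of OX40, at 0.514 ± 0.381 CPM in CD43-KO and 0.295 ± 0.108 CPM in Vec tumours, with edgeR adjusted p of 0.740 and 0.526. Of the 9 ligand and adaptor genes 6 lay above 0, the median was 0.15 and 0 passed. The most abundant were the adaptor genes Traf1 (67.9 ± 6.64 CPM in CD43-KO and 61.4 ± 4.64 CPM in Vec tumours), Traf2 (34.0 ± 1.84 CPM in CD43-KO and 38.99 ± 10.9 CPM in Vec tumours), Traf3 (52.7 ± 6.22 CPM in CD43-KO and 43.2 ± 7.22 CPM in Vec tumours) and the ubiquitin ligase gene Birc2 (38.1 ± 4.16 CPM in CD43-KO and 36.5 ± 5.70 CPM in Vec tumours).

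The ligands of CCR8 had opposite signs. Ccl8, which attracts cells through CCR8 in mice, was at 173, 160, 971, 28.1 and 45.1 CPM in CD43-KO tumours, compared with 42.3, 47.6, 80.8 and 76.1 CPM in Vec tumours. CD43-KO replicate 3 held most of this level, and the log2 fold change of 2.16 ± 0.96 (SE) did not pass (edgeR adjusted p = 0.323). Ccl1, the other ligand, was at 1.59, 1.79, 1.35, 0.971 and 1.83 CPM in CD43-KO tumours, compared with 1.18, 1.59, 3.75 and 2.38 CPM in Vec tumours (a log2 difference of -0.57 ± 0.34 SE, edgeR adjusted p = 0.4395). Of homing genes, Ccl17, a ligand gene of CCR4, was at 8.56 ± 3.71 CPM in CD43-KO and 7.40 ± 4.24 CPM in Vec tumours. Ccl22, the other CCR4 ligand gene, had 7.86 ± 4.10 CPM in CD43-KO and 5.51 ± 0.994 CPM in Vec tumours, and Ccr4 itself was too low to be tested.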

How the data were processed

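Bulk RNA of 9 tumours had been sequenced, and the authors deposited 1 table of unscaled whole-number counts per gene name for each library. HISAT2 2.1.0, StringTie 1.3.5, DESeq2 and GRCm38 are named in the submitters' processing notes without a role, and the counting step is not given in the sources used here. More names had 2 counts than 1 count in every library, so a count may not be 1 independent fragment. R 4.3.3 was used with edgeR 4.0.16 (filterByExpr, minimum count 10; TMM; robust quasi-likelihood F test), limma 3.58.1 (log2 CPM, prior count 2) and DESeq2 1.42.0, at an adjusted p of 0.05 over all genes. An edgeR SE is the log2 fold change over the square root of F. Exact tests used log2 CPM with a pseudocount of 0.1. The scripts' tests were checked on simulated counts, with Cd3e unchanged and each gene drawn independently. That check does not cover ratios in tumours where Cd3e varies together with the other genes. The members and lists were chosen with earlier results of these data known. Named were the 8 genes, Cd3e and Spn, the other denominators, the 4 most abundant genes and the ligands of each partner list, and the 3 genes most like each member; 1 gene of the chemokine list and that list's counts are not reported here. Over 36 pairs of libraries the smallest chi-square per degree of freedom was 35.9, so all 9 differed beyond sampling noise. Replicate numbers are names given in accession order.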

Additional observations from a re-analysis of the deposited data

Results flagged for a closer look

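Among 36 sets of values tested (the levels of the 8 genes, Cd3e and Spn and the 8 ratios, in each group), 3 held a tumour far from the others by Dixon's test, where chance gives about 1 in 20. CD43-KO replicate 5 had an Ikzf4 level of 1.504 CPM, and the remaining CD43-KO tumours had 0.929 to 1.05 CPM. The same tumour had a ratio of Tnfrsf4 to Cd3e of 2.25, where the remaining CD43-KO tumours had 0.802 to 1.15, and its Cd3e level was the lowest of all 9. Vec replicate 3 had an Il2ra level of 3.79 CPM, and the remaining Vec tumours had 2.92 to 3.01 CPM.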

How the results depend on the processing

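The log2 fold changes of the 8 genes kept their sign under the alternatives that gave a value, which for Ccr8 leaves out the stricter filter on low counts because the gene did not pass it. The calls among them were those of DESeq2 for Ikzf2 (0.70) and Tnfrsf18 (0.97). In fits of DESeq2 without 1 tumour, chosen after seeing the data, Ikzf2 gave 0.57 to 0.82 (adjusted p 0.0134 to 0.157) and Tnfrsf18 gave 0.72 to 1.13 (adjusted p 0.00276 to 0.185). Leaving out each tumour in turn in edgeR gave 0.71 to 1.21 for Foxp3, 0.68 to 1.16 for Il2ra, 0.56 to 0.82 for Ikzf2, 0.38 to 0.59 for Ikzf4, 0.71 to 1.14 for Tnfrsf18, 0.27 to 0.64 for Tnfrsf4, 0.27 to 0.48 for Tnfrsf9 and 0.88 to 1.40 for Ccr8, with no call. Over all genes, edgeR called 0 higher and 0 lower, 1 lower with no filter, and 0 to 8 higher and 0 to 21 lower with 1 tumour left out, the most without Vec replicate 3. DESeq2 called 247 higher and 365 lower, and limma voom 190 and 372. None of the ratios passed under any setting that gave a value. Those of Tnfrsf4 and Tnfrsf9 kept their sign under all of them and that of Ikzf4 with every other denominator, while those of the other 5 genes changed sign with some denominators. With Cd3g the log2 difference was -0.0297 for Il2ra and -0.0742 for Ikzf2, with Cd3d -0.0365 for Ikzf2, with Ptprc -0.0393 for Ikzf2, and with the mean of 4 receptor chains -0.011 for Il2ra and -0.0556 for Ikzf2. With Cd247 it was -0.12 for Foxp3, -0.15 for Il2ra, -0.20 for Ikzf2, -0.0766 for Tnfrsf18 and -0.0143 for Ccr8, and with Cd4 it was -0.27, -0.30, -0.35, -0.23 and -0.16 for the same 5 genes. With Cd3e as an offset in edgeR, Ikzf4 gave 0.21. Leaving out 1 tumour gave -0.0465 to 0.25 for Il2ra, -0.22 to 0.29 for Ikzf2, -0.57 to 0.10 for Ikzf4 and -0.0045 to 0.33 for Tnfrsf18, each lowest without CD43-KO replicate 5. The cause was not tested, beyond that a new denominator shifts all members by 1 amount. No paired analysis was possible because the labels give no replicate numbers that the groups share. Foxp3, Ccr8 and Ikzf4 rest on 22 to 146 counts per tumour.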
